A study of Mus musculus with 4 samples.

Results

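The nuclear-encoded subunits of the mitochondrial respiratory chain and ATP synthase were examined in the middle ear of mice exposed to diesel exhaust particles (DEP). Members were all genes whose mouse symbol follows the naming pattern of complex I (Nduf with a letter a, b, c, s or v and a number), complex II (Sdha to Sdhd), complex III (Uqcr), complex IV (Cox4 to Cox8) or complex V (Atp5). RefSeq lists 85 such symbols, 83 of them had at least 1 probe on the array (112 probes), and 81 could be tested, out of 25694 genes tested in the whole series. The 25694 also count transcripts that matched no gene symbol, and so do the shares of all genes given below. Of these 81 genes, 36 belong to complex I, 4 to complex II, 8 to complex III, 16 to complex IV and 17 to complex V. Cox7b2 and Cox8c, isoforms known from testis, were not tested because too few arrays gave a ratio; Cox7b2 was well above background on 1 array in each channel and Cox8c on none. The widespread subunit gene Ndufb1 and the pseudogene Cox6c2 had no probe. The rule leaves out Cyc1, a complex III subunit, and Ndufab1, a complex I subunit, which are given below among related genes.

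Oxidative phosphorylation passes electrons from NADH through complex I, or from succinate through complex II, to complex III, cytochrome c and complex IV, where oxygen is reduced. Complexes I, III and IV pump protons out of the mitochondrial matrix, and complex V, the ATP synthase, uses the gradient to make ATP. Most subunits are encoded in the nucleus and made in nearly every cell, in large amounts in muscle, brown fat and neurons, and a few complex IV subunits have a separate gene used in heart and skeletal muscle.

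The mice were 9 male BALB/c animals aged 6 to 10 weeks, which inhaled a DEP suspension daily for 5 days, 1 h at a time. RNA came from temporal bone tissue that held the middle ear, dissected on day 14. The 4 arrays lie on 1 slide and have 2 colours, and each carried 1 extract labelled as DEP-treated ear (Cy5) against 1 labelled as control ear (Cy3). No dye was swapped, so a dye effect and an effect of exposure cannot be told apart, and the sources used here do not say how many animals each extract or each group came from or whether a single control extract served several arrays. The p-values therefore measure the spread between these 4 arrays. Values are log2 ratios of the DEP channel over the control channel, taken from the deposited ratios, so that a negative value means a lower signal in the channel labelled DEP. This direction follows the source names of the channels. The treatment entries of the labels do not settle it, since DEP and none are both entered for Cy5, and the direction is opposite to the one that the study describes for the genes it names. Were the channels the other way round, every sign given here would turn: the 86.4% of members with a lower mean would be higher and Cox4i1 would be the highest in place of the lowest.

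The dissected tissue was mixed: 10 of 10 airway epithelium markers and 7 of 8 bone markers were tested and had a signal clear of the background in either colour on every array, as had 14 of 14 skeletal muscle and 10 of 10 neuron markers. In such bulk samples fewer cells of a type and less RNA per cell cannot be told apart. Across all genes, the ratios of arrays 1 and 4 correlated at r = -0.25 and those of arrays 1 and 2 at r = 0.60, values that describe the arrays and carry no test.

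For most respiratory chain genes the signal in the DEP channel was lower on array 1 and close to that of the control on the other arrays. The median log2 ratio of the 81 genes was -0.55 on array 1, -0.01 on array 2, -0.05 on array 3 and 0.09 on array 4. The corresponding medians of all genes were -0.02, 0.08, 0.03 and 0.04. On array 1, 80 of the 81 genes were below 0, against 51.7% of all genes, and the exception was Cox4i2 at 0.06. Array 1 was the lowest of the 4 arrays for 78 genes (96.3%), against 37.4% of all genes with 4 ratios. Lower past 2-fold on array 1 were 7 members (Cox7a1, Cox8b, Cox6a2, Cox4i1, Cox5a, Ndufa4 and Atp5e), or 8.64%, against 9.59% of all genes.

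Averaged over the 4 arrays, no respiratory chain gene differed between the channels after correction for multiple testing. With limma, 0 of 81 genes had an adjusted p under 0.05 (0% of all genes), and an ordinary least-squares test also gave 0. At an unadjusted p under 0.05 there were 2 genes, Cox4i1 and Atp5e, or 2.47%, against 18.7% of all genes. No member was past 2-fold by its mean, against 6.78% of all genes. The median of the 81 means was -0.12, against 0.03 for all genes, and 70 genes (86.4%) had a mean below 0, against 45.8% of all genes. On all 4 arrays 17 genes (21%) were lower, against 11.5% of all genes with 4 ratios (12.6% of all genes were lower on every array that gave a ratio). On all 4 arrays 0 members were higher, against 17.2% of all genes with 4 ratios. Without array 1, 38 of 81 genes were lower and the median was 0.01, so the low median rested on that array. Without array 1, 2 or 3, Cox4i1 alone (1 gene) kept an unadjusted p under 0.05.

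**Figure D1:**
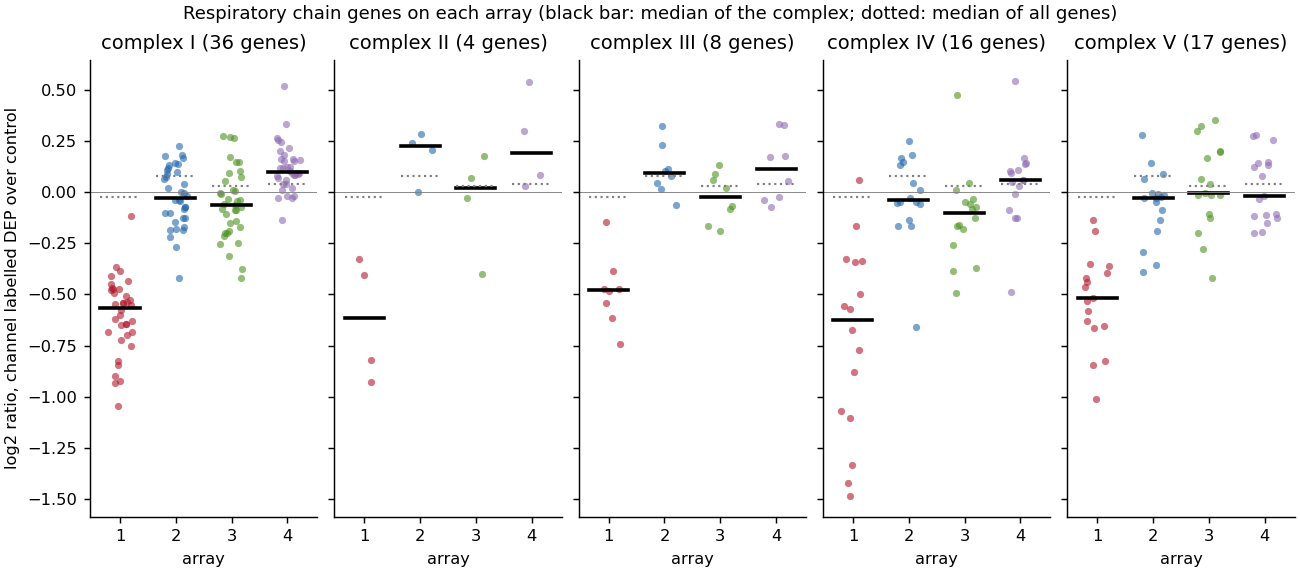
Log2 ratio of the DEP over the control channel (vertical axis) of each respiratory chain gene on each of the 4 arrays (horizontal axis), by complex. Each point is 1 gene, black bars are the median of the complex and dotted bars the median of all genes. The array 1 medians lie between -0.62 and -0.48 in every complex, while the medians on arrays 2 to 4 lie between -0.10 and 0.22.

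Levels scaled across arrays could not show which channel moved on array 1. The scaling gave the average of both channels a common distribution across arrays and split the ratio evenly between them. A low ratio alone therefore lowers the DEP level and raises the control level. After this scaling, the median log2 level of the 81 genes in the DEP channel was 14.33 on array 1, against 14.62, 14.76 and 14.59 on arrays 2 to 4. In the control channel it was 15.00 on array 1, against 14.67, 14.86 and 14.46. Array 1 thus had the lowest scaled level of the DEP channel and the highest of the control channel, which largely restates its low ratio. In the scaled control channel array 4 lay further from its neighbour than array 1. Without the scaling, the summed processed signal of the listed core genes of complex I was highest on array 1 in both channels. On arrays 1 to 4 it was 144190, 121130, 120260 and 98313 in the DEP channel. The control channel had 206990, 120130, 122530 and 91760.

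The direction of the mean depended on how the spot signals were normalized, while the distance of array 1 from other bright genes did not. The members are bright genes: 70 of the 81 had a mean signal over 10000, as did 1718 other genes. With the deposited ratios, the 70 members had a median of -0.58 on array 1 and the other bright genes -0.06, a difference of -0.52. When the spot signals were corrected with normexp and each array was only centred on its median, with no intensity-dependent step, all 81 members were higher by mean (median 0.52), 33 passed an adjusted p of 0.05 in limma (as did 3134 of all 25694 genes), and 95.5% of the other bright genes were higher too, with a median of 0.63. Under that setting the difference on array 1 was -0.49, and with normexp followed by loess it was also -0.49. On arrays 2 to 4 the difference lay between -0.08 and 0.13 in all 3 normalizations. A lower mean given here for a member holds for the deposited ratios and turns to a higher one under normexp with median centring.

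**Figure D2:**
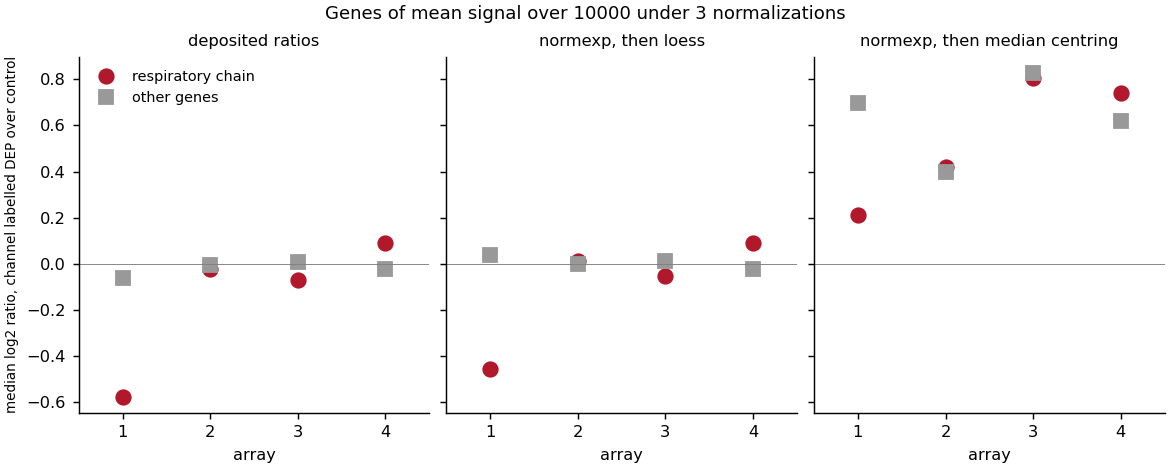
Median log2 ratio of DEP over control (vertical axis) of the 70 respiratory chain genes (circles) and 1718 other genes (squares) with a mean signal over 10000, on each array (horizontal axis) under 3 normalizations. Under each normalization the members lie below the other genes on array 1, by 0.52, 0.49 and 0.49 from left to right, and near them on the other arrays.

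Complex I, the NADH dehydrogenase, had a median of -0.13 over its 36 genes, with 33 lower by mean, 5 lower on all arrays and none with an unadjusted p under 0.05 (0 of 36). Its median turned to 0.03 without array 1. On array 1 all 36 genes were below 0, from -1.04 to -0.12. Core subunits of the arm that takes electrons from NADH include Ndufs1, Ndufs3, Ndufs7, Ndufs8, Ndufv1 and Ndufv2. These named genes had means from -0.15 (Ndufs7) to -0.06 (Ndufv2) and array 1 values from -0.55 (Ndufs3) to -0.45 (Ndufs7). Ndufv1, which binds NADH and the flavin, had log2 ratios of -0.54, -0.02, -0.03 and 0.12 on arrays 1 to 4. Ndufs1, which holds iron-sulfur clusters, had -0.51, 0.07, 0.0060 and 0.08. For both genes array 1 was the lowest of the arrays.

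The lowest mean of complex I belonged to Ndufa4, a small subunit named with complex I and since assigned to complex IV. Its ratios were -1.04, -0.22, -0.42 and 0.07, a mean of -0.40 ± 0.47 (SD, n = 4), with an adjusted p of 0.356 in limma. The highest mean belonged to Ndufa10, an accessory subunit, with ratios of -0.12, 0.10, 0.27 and 0.24 and a mean of 0.12 ± 0.18 (adjusted p = 0.599 in limma). Both spans include 0.

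Complex II, succinate dehydrogenase, is shared with the citric acid cycle. Its 4 genes had a median of 0.0003, and 2 were lower and 2 higher by mean. This median was -0.12 with the mean of probes, -0.09 without array 4 and 0.14 without array 1. Sdha, the flavoprotein that oxidises succinate, had ratios of -0.40, 0.28, 0.07 and 0.30. Sdhb, the iron-sulfur subunit, had -0.82, 0.24, 0.17 and 0.53. Sdhd, a membrane anchor, was the lowest by mean with -0.93, 0.00, -0.40 and 0.08 (mean -0.31 ± 0.46, limma adjusted p = 0.449). All 4 genes were low on array 1, and on array 2 no ratio was clearly below 0.

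Complex III, the cytochrome bc1 complex, had a median of -0.08 over 8 genes, with 6 lower by mean. This median turned to 0.06 without array 1. The core proteins Uqcrc1 and Uqcrc2 had means of -0.03 ± 0.25 and -0.04 ± 0.30, and the Rieske iron-sulfur protein Uqcrfs1 had 0.06 ± 0.36. The extremes were small subunits. Uqcr11 had ratios of -0.74, -0.06, -0.19 and -0.07 (mean -0.27 ± 0.32, limma adjusted p = 0.408). By the brightest probe, it was the only member of the complex below 0 on all arrays. A dimmer probe each of Uqcrq, Uqcrb and Uqcr10 was below 0 on all arrays too. That of Uqcrq had -0.75, -0.17, -0.41 and -0.36 (mean -0.42, unadjusted p = 0.0258, adjusted p = 0.221, limma). Uqcrh, the hinge protein next to cytochrome c1, had -0.15, 0.32, 0.06 and 0.33 (mean 0.14 ± 0.23), the highest mean of all 81 genes.

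Complex V, the ATP synthase, had a median of -0.10 over 17 genes, with 14 lower by mean and 7 lower on all 4 arrays. The catalytic subunit Atp5b had ratios of -0.44, 0.14, 0.30 and 0.26, and its partner Atp5a1 had -0.46, -0.09, 0.07 and -0.02. The central stalk subunit Atp5c1 was lower on all arrays, with -0.35, -0.39, -0.01 and -0.20 (mean -0.24 ± 0.17). The subunit with the lowest mean was Atp5e, the small epsilon subunit of the stalk, with -1.01, -0.36, -0.42 and -0.11, a mean of -0.48 ± 0.38 (unadjusted p = 0.0437, adjusted p = 0.259, limma). Its mean was -0.30 without array 1.

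The proton-carrying ring of complex V is built from a single mature peptide that 3 genes encode. Atp5g1 had ratios of -0.40, 0.06, 0.20 and 0.15, and Atp5g3 had -0.42, -0.0029, 0.35 and 0.08. Atp5g2 had -0.13, -0.03, -0.0031 and -0.03 with its brighter probe and -0.33, -0.10, -0.06 and -0.15 with the other. By the brightest probe, the 3 means lay between -0.05 and 0.0042, and the second probe of Atp5g2 had a mean of -0.16.

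Complex IV, cytochrome c oxidase, had the lowest median of the 5 complexes, -0.17 over 16 genes, of which 15 were lower by mean. This rank rested on array 1: without it the median was -0.01, and that of complex V was slightly lower. On array 1 its genes ran from -1.48 to 0.06, the widest range of any complex, and 5 of the 16 were lower past 2-fold. Cox4i1, the widespread form of subunit 4 and the largest nuclear-encoded subunit, had ratios of -1.11, -0.66, -0.49 and -0.49. All 4 arrays were below 0, and the mean of -0.69 ± 0.29 was the lowest of all members, with an unadjusted p of 0.00581 and an adjusted p of 0.152 in limma. Cox4i2, its partner known from lung and from low oxygen, stayed near 0 with 0.06, 0.15, -0.06 and -0.13. Its probe was dim, with a mean signal of 288 against 68358 for Cox4i1. The difference between the partners, Cox4i2 minus Cox4i1, was above 0 on 4 of 4 arrays (mean 0.69 ± 0.37), with an exact two-sided sign-flip p of 0.125, the smallest that 4 arrays allow, and an adjusted p of 0.312 over the 5 isoform pairs compared. This difference depended on the normalization: it was 0.43 with normexp and loess and turned to -0.19 with normexp and median centring.

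The testis isoform Cox6b2 and the widespread Cox6b1 gave a smaller difference of the same kind. Cox6b1 had ratios of -0.56, -0.14, -0.17 and -0.13, and Cox6b2 had -0.33, 0.18, -0.05 and 0.09. The difference, Cox6b2 minus Cox6b1, was above 0 on 4 of 4 arrays at 0.22 ± 0.08 (exact p = 0.125, adjusted p = 0.312), and 0.08 with normexp and median centring. Cox7b, whose testis partner could not be tested, had -0.34, 0.13, 0.04 and 0.03. Cox7a2l, an assembly factor of supercomplexes that shares the name pattern, had -0.17, -0.16, -0.08 and -0.09 with its brightest probe, while its other 2 probes had means of 0.0070 and -0.0034 with arrays on both sides of 0.

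**Figure D3:**
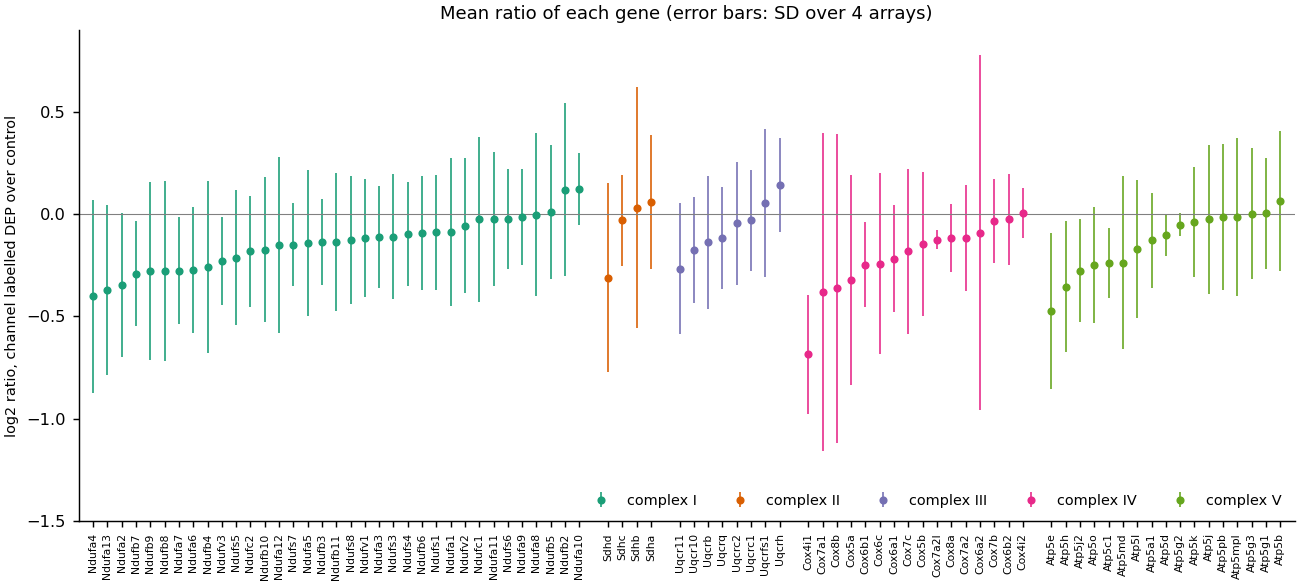
Mean log2 ratio of DEP over control (vertical axis) of 80 of the 81 respiratory chain genes, ordered within each complex, with error bars for the SD over 4 arrays. The lowest mean is that of Cox4i1 at -0.69 and the highest that of Uqcrh at 0.14, and the widest bars belong to the muscle isoforms Cox6a2, Cox7a1 and Cox8b.

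Cox6a2, Cox7a1 and Cox8b are the complex IV genes used in heart and skeletal muscle, and Cox7a1 and Cox8b are also known from brown fat. Their widespread partners are Cox6a1, Cox7a2 and Cox8a. The 250 bases before the start of transcription are printed for the 5 of these genes that the promoter table holds, because they show how muscle and widespread isoforms of the same protein differ in their promoters; Cox6a2 is not in it. Each is RefSeq sequence of GRCm38.p6, written in the direction of transcription, with capitals for a match on either strand to CATGCGC (part of the motif of NRF1), CCGGAAG (GABP), GGGCGG (SP1), AAGGTCA (ERR), CAGCTG (an E-box) or TATAAA. The windows are chr5:115348959-115349208 on the minus strand for Cox6a1, chr9:79759854-79760103 on the minus strand for Cox7a2, chr19:7217617-7217866 on the minus strand for Cox8a, chr7:30183921-30184170 on the plus strand for Cox7a1 and chr7:140900447-140900696 on the minus strand for Cox8b.
Cox6a1: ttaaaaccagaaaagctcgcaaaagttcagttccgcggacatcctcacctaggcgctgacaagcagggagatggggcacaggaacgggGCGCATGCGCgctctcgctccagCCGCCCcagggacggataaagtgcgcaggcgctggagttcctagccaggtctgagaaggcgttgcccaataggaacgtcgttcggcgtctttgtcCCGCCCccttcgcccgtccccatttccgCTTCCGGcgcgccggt
Cox7a2: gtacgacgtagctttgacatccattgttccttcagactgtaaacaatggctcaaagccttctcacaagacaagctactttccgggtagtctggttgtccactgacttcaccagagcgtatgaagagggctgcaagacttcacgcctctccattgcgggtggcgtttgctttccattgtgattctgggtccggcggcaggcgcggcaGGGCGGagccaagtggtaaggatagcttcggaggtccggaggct
Cox8a: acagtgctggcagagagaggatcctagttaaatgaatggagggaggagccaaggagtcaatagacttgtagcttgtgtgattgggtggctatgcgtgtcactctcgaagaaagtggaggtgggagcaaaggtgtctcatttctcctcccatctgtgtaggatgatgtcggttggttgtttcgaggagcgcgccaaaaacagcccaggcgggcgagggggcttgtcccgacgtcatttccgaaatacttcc
Cox7a1: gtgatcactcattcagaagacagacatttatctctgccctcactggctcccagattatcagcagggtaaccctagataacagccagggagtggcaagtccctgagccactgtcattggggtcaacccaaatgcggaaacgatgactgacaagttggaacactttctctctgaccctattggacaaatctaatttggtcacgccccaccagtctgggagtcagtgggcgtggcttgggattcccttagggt
Cox8b: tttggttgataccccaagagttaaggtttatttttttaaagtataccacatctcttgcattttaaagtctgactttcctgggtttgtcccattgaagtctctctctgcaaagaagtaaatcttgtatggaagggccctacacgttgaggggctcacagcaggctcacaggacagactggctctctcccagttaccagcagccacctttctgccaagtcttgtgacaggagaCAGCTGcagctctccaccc

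The windows of the widespread genes held more CpG dinucleotides: 26 in Cox6a1, 14 in Cox7a2 and 11 in Cox8a, against 4 in Cox7a1 and 1 in Cox8b. In Cox6a1 the NRF1 letters stood on both strands in an overlapping pair of matches, which began 162 and 159 bases before the start, with SP1 letters 139 and 44 bases before it and GABP letters 16 bases before it. Cox7a2 held the SP1 letters once and Cox8b the E-box once, while Cox8a and Cox7a1 held none of the 6 motifs. Of the members, 67 of 81 had a window, with a median of 14 CpG and 56.4% GC, against 6 CpG and 52% over the 27025 windows of the table. The NRF1 letters were in 10 member windows (14.9%; Atp5g2, Atp5k, Atp5l, Cox5b, Cox6a1, Ndufa6, Ndufa8, Ndufa11, Ndufb6 and Sdhb), against 3.32% of all windows. The GABP letters were in 16.4% against 7.05%, SP1 in 35.8% against 32.9%, ERR in 7.46% against 4.05%, the E-box in 8.96% against 12.8% and TATAAA in 8.96% against 13%. A match describes letters in a window and not binding in this tissue.

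On the arrays, the muscle isoforms were the 3 lowest of the 81 genes on array 1 and parted on the others. Cox6a2 had ratios of -1.33, -0.05, 0.47 and 0.54, Cox7a1 had -1.48, 0.17, -0.37 and 0.17, and Cox8b had -1.42, 0.25, -0.39 and 0.11. Cox6a2 was thus higher in the DEP channel on arrays 3 and 4, while Cox7a1 and Cox8b followed each other, lower on arrays 1 and 3 and higher on arrays 2 and 4. The widespread partners moved over a smaller range. Cox6a1 had -0.57, -0.03, -0.26 and -0.01, Cox7a2 had -0.50, 0.04, -0.07 and 0.06, and Cox8a had -0.34, -0.05, -0.13 and 0.05. A second probe of Cox8a was lower on all 4 arrays, with a mean of -0.39 (unadjusted p = 0.0232, adjusted p = 0.213, limma).

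The mean differences between muscle and widespread isoforms were smaller than the spread between arrays, and no pair could pass a threshold of 0.05 with 4 arrays. Cox6a2 minus Cox6a1 was -0.76, -0.02, 0.73 and 0.55 on arrays 1 to 4 (mean 0.13 ± 0.67, exact p = 1). Cox7a1 minus Cox7a2 was -0.99, 0.12, -0.30 and 0.11 (mean -0.26 ± 0.52, exact p = 0.5, adjusted p = 0.833). Cox8b minus Cox8a was -1.08, 0.30, -0.26 and 0.06 (mean -0.25 ± 0.60, exact p = 0.75, adjusted p = 0.938). By the brightest probes, each pair was above 0 on 2 arrays and below 0 on 2. The second probe of Cox8a had -0.60, -0.34, -0.47 and -0.16. Against that probe Cox8b was lower on array 1 alone, and its mean of -0.36 lay just above the probe's mean of -0.39. The sign of Cox6a2 minus Cox6a1 turned without array 3 (-0.07), without array 4 (-0.02) and under normexp with median centring (-0.15), and that of Cox8b minus Cox8a without array 1 (0.03). Cox7a1 minus Cox7a2 was -0.02 without array 1. Without the muscle isoforms, the median of the other 78 members on array 1 was -0.54, against -0.55 with them.

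**Figure D4:**
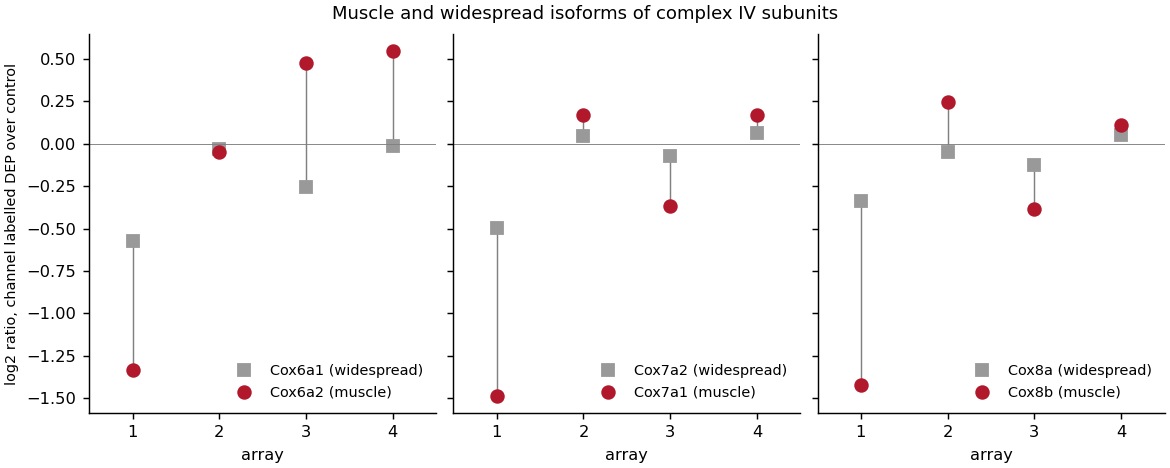
Log2 ratio of DEP over control (vertical axis) of 3 muscle isoforms of complex IV (circles) and their widespread partners (squares) on each array (horizontal axis), joined by lines. On array 1 every muscle isoform lies below its partner, by 0.76, 0.99 and 1.08 from left to right, and on the other arrays the order varies.

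Genes of muscle fibres were, like Cox6a2, low on array 1 and mostly high on arrays 3 and 4; on array 2 most were further below 0 than Cox6a2. The 14 skeletal muscle markers had medians of -0.82, -0.46, 0.73 and 0.76 on arrays 1 to 4, with 14 of 14 below 0 on array 1, 12 on array 2, 1 (Myh1) on array 3 and 0 on array 4. None of them had an unadjusted p under 0.05 (0 of 14, against 18.7% of all genes), and all were well above background on all arrays. Their summed processed signal ran over the arrays from 481180 to 802720 in the DEP channel and from 385410 to 1263900 in the control channel. Genes of muscle energy supply, chosen for display after their values were seen, included Slc25a4, the muscle carrier of ADP and ATP, at -1.03, -0.07, 0.50 and 0.75, and Ckmt2, the mitochondrial creatine kinase of muscle, at -1.38, 0.33, 0.64 and 0.87. The part of muscle content in the ratios of the respiratory chain was not tested.

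Ucp1, the uncoupling protein of brown fat, had -2.54, 0.54, -1.86 and 0.32, low on arrays 1 and 3 like Cox7a1 and Cox8b. The list of 6 brown fat markers, which includes Cox8b, did not move together: its medians were -0.69, 0.58, -0.18 and 0.22, Elovl3 had 4.10, 0.63, 2.02 and -3.17, and Cidea had 1.85, 0.82, 0.05 and -0.94. Its summed signal ran from 65809 to 141260 in the DEP channel and from 79399 to 152600 in the control channel. The part of brown fat in these values was not tested.

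**Figure D5:**
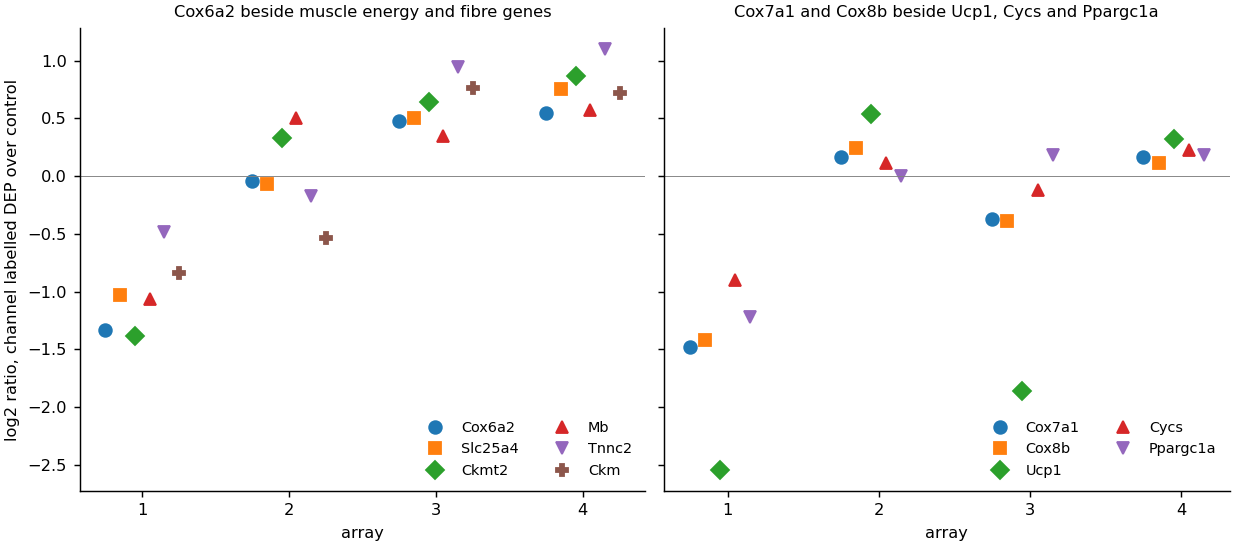
Log2 ratio of DEP over control (vertical axis) on each array (horizontal axis) of Cox6a2 with Slc25a4, Ckmt2, Mb, Tnnc2 and Ckm (left) and of Cox7a1 and Cox8b with Ucp1, Cycs and Ppargc1a (right), 1 point per gene. Cox6a2 and the other genes on the left lie below 0 on array 1 (Cox6a2 at -1.33) and above 0 on arrays 3 and 4, and Cox7a1, Cox8b and Ucp1 are all below 0 on arrays 1 and 3 and above 0 on arrays 2 and 4.

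Markers of neurons and red cells, both with values that shift on array 1, were set beside the chain as well. The 10 neuron markers had medians of -2.27, -1.30, -0.75 and 0.29, all 10 were below 0 on arrays 1 to 3, and 5 of 10 were lower at an unadjusted p under 0.05, against 8.66% of all genes. Their summed signal ran from 23031 to 35925 in the DEP channel and from 26913 to 94521 in the control channel. The 7 erythroid markers had medians of -0.83, 0.21, 0.44 and 0.20, with summed signals from 404260 to 460240 and from 272400 to 679720. The part of these cell types in the ratios of the chain was not tested.

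Related mitochondrial genes followed the chain on array 1 in part. The 17 genes of the citric acid cycle and pyruvate dehydrogenase had medians of -0.56, 0.13, -0.08 and 0.16, with 15 of 17 below 0 on array 1; at an unadjusted p under 0.05, 1 was lower (Ogdh, a subunit of oxoglutarate dehydrogenase, mean -0.41) and 1 higher (Suclg2, a subunit of succinyl-CoA synthetase, mean 0.41), or 2 of 17 against 18.7% of all genes. Cycs, cytochrome c, had -0.90, 0.12, -0.12 and 0.23, and Cyc1, the complex III subunit outside the naming rule, had -0.85, -0.23, -0.12 and -0.10. Ndufab1, which is also the mitochondrial acyl carrier protein, had 0.38, 0.49, -0.15 and -0.21. Etfdh, which feeds electrons from fatty acid oxidation to ubiquinone, was above 0 on 4 of 4 arrays with a mean of 0.43 ± 0.20 (limma adjusted p = 0.202).

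Genes that build or regulate the chain had medians closer to 0 on array 1. Of 45 listed assembly factors 42 were tested, with medians of -0.16, 0.01, 0.05 and 0.02. At an unadjusted p under 0.05, 4 of 42 were lower and 3 higher, against 8.66% lower and 10% higher of all genes, a share near the background, and none passed adjustment (0 of 42). Cox10, which makes the haem precursor of complex IV, had the lowest mean (-0.64 ± 0.23), and Coa5, an assembly factor of complex IV, the highest (0.47 ± 0.13), with limma adjusted p of 0.145 and 0.159. The Cox10 probe was dim, with a mean signal of 52.5 against a median of 1486 for the assembly factors. The 13 regulators of mitochondrial biogenesis had medians of 0.11, 0.16, 0.18 and 0.13, with 0 of 13 lower and 3 higher at an unadjusted p under 0.05 (8.66% and 10% of all genes). Nrf1, a transcription factor of respiratory chain genes, had ratios of 0.33, 0.40, 0.35 and 0.38 (limma adjusted p = 0.184). Ppargc1a, the coactivator of mitochondrial biogenesis in muscle and brown fat, had -1.22, 0.0004, 0.18 and 0.18. Of the 13 subunit genes of the mitochondrial genome, 0 were matched to a probe, so the mitochondrially encoded subunits are not analysed here.

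Probes of the same gene mostly gave like values. Of 22 members with several probes, 18 had probe means within 0.25 of each other on the log2 scale, and the largest range was 0.38, for Ndufv3. In 7 of them the means had opposite signs, among them Sdhb, whose mean over probes was -0.07. On array 1, 107 of 110 probes were below 0. Many subunit genes have processed pseudogenes, and binding of such transcripts to these probes was not tested.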

How the data were processed

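Total RNA was labelled in 2 colours and hybridised to Agilent mouse arrays, and spot signals were read by the authors in Feature Extraction (10.10.1.1, per the submitters' processing notes). The deposited log10 ratio of Cy5 over Cy3 is background-subtracted and dye-normalized by that software and was converted to log2. The deposited intensity of each spot (processed, mean and background signals) served for brightness and for the normexp alternatives. The deposited value table holds the same log10 ratios, equal within rounding. Its scale and direction follow those of the scanner files. No column lacked a sample (0).

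Control spots, flagged spots (164 to 274 per array) and spots without a ratio (6179 to 8558 of 43020) were left out, spots of a probe were averaged, and probes with ratios on fewer than 3 arrays were not fitted. The 31577 probes were fitted together in limma 3.58.1 (R 4.3.3; lmFit with an intercept, eBayes, two-sided, Benjamini-Hochberg over all probes), with a prior of 1.98 degrees of freedom. The brightest probe stood for a gene. Isoform pairs were compared by an exact sign-flip permutation test. Promoters came from RefSeq (GRCm38.p6). The genome build of the array annotation differs from it, and coordinates are given only for the printed promoter windows, in the RefSeq build.

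Probes were named by RefSeq accession: 27655 of 39429 matched, to 20971 genes. Named genes were the tissue isoforms and partners, the extremes of each complex, members past 2-fold or with an unadjusted p under 0.05, and the core subunits; 1 gene is not reported here by name. The members and gene lists were chosen with earlier results of these data known. In simulated data with 200 of 31577 probes changed, the fit called 84, of which 2 were false, recovering 21 of 100 at a log2 change of 1 and 61 of 100 at a log2 change of 2. The number of arrays limits the precision. All arrays lie on 1 slide with 1 scan each, so no batch was tested. Alternatives were normexp (offset 50) with loess or with median centring, the value table, centred ratios, filters on dim probes, flagged spots kept, the mean of probes, each array left out, and limma with an intensity trend or no moderation.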

Additional observations from a re-analysis of the deposited data

Results flagged for a closer look

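For 4 of the 45 results examined, 1 array lay far from the other 3 (gap to the nearest array over the whole range above Dixon's critical value, which chance exceeds in about 1 of 20 groups). In each case it was array 1, and it was the lowest. These were Cox6b1 (0.907), a subunit of complex IV, Ndufs1 (0.869) and Ndufs7 (0.837), core subunits of complex I, and the median of the complex V genes (0.953). Over the members, 9 of 81 (11.1%) stood out in this way, all through a low array 1, against 4.60% of all genes and 1.39% of all genes through a low array 1.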

How the results depend on the processing

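Normexp with median centring changed most results. Genes with an adjusted p under 0.05 went from 0 to 33 of the 81 members (3134 of all genes, 269 of them lower), those with an unadjusted p under 0.05 from 2 to 67, and the median from -0.12 to 0.52, with the median of all genes at 0.11. The medians of complexes I to V became 0.47, 0.52, 0.59, 0.47 and 0.59. The following log2 ratios turned from lower to higher: Atp5a1 0.75, Atp5c1 0.31, Atp5e 0.43, Atp5g2 0.73, Cox4i1 0.32, Cox6a1 0.74, Cox6a2 0.59, Cox6b1 0.17, Cox6b2 0.25, Cox7a1 0.30, Cox7a2 0.43, Cox7b 0.68, Cox8a 0.76, Cox8b 0.45, Ndufa4 0.21, Ndufs1 0.43, Ndufs3 0.57, Ndufs7 0.57, Ndufs8 0.25, Ndufv1 0.56, Ndufv2 0.50, Sdhd 0.22, Uqcr11 0.60, Uqcrc1 0.47, Uqcrc2 0.59. Cox6a2 minus Cox6a1 turned to -0.15 and Cox4i2 minus Cox4i1 to -0.19; the alternatives for this pair and for Cox6b2 minus Cox6b1 were chosen after seeing the data. With normexp and loess, 6 members had an unadjusted p under 0.05, and these turned: Atp5a1 0.056, Atp5g2 0.0064, Cox4i2 -0.019. Centring of the deposited ratios turned Atp5g1 -0.021, Atp5g3 -0.022, Cox4i2 -0.020, and the mean of probes turned Sdhb -0.070. The other alternatives that kept all arrays turned no direction. Leaving out each array in turn gave 1 to 2 members with an unadjusted p under 0.05 and a median from -0.19 to 0.011, and the sign of the mean turned in at least 1 case for the following, given from the lowest to the highest value: Atp5b -0.015 to 0.23, Atp5g1 -0.061 to 0.14, Atp5g3 -0.11 to 0.14, Cox4i2 -0.042 to 0.049, Cox6a2 -0.30 to 0.32, Cox6a2 minus Cox6a1 -0.074 to 0.42, Cox6b2 -0.094 to 0.075, Cox7a2 -0.17 to 0.011, Cox7b -0.088 to 0.068, Cox8b minus Cox8a -0.43 to 0.032, Ndufs1 -0.15 to 0.052, Ndufs3 -0.20 to 0.037, Ndufs8 -0.22 to 0.013, Ndufv1 -0.20 to 0.024, Ndufv2 -0.14 to 0.11, Sdha -0.018 to 0.22, Sdhb -0.14 to 0.32, Uqcrc1 -0.10 to 0.090, Uqcrc2 -0.12 to 0.10 and Uqcrfs1 -0.037 to 0.23. Without array 1, 38 members were lower, against 76 to 79 without another array; without array 3 or array 4, 82 members had enough ratios. Members with an adjusted p under 0.05 stayed at 0 except under normexp with median centring. The ratio of each array already pairs its 2 extracts, and the tests are of these paired values; no further block by replicate number could be fitted. Signal kept only Cox7b2 and Cox8c out of the main fit. Most tested members are far above background, but Cox4i2 (mean signal 288) and Cox6b2 (1064) are dim beside the median of the members (27290). The cause of the turns was not tested.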

Other observations

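Enzymes that defend mitochondria against peroxides and superoxide were also measured. Of 8 listed, 7 were tested, all 7 with a mean below 0 (median -0.13) and none with an unadjusted p under 0.05 in limma (0 of 7, against 18.7% of all genes). Prdx3, a mitochondrial peroxiredoxin, had log2 ratios of -0.78, 0.20, -0.03 and 0.32 on arrays 1 to 4, and Sod2, the mitochondrial superoxide dismutase, had -0.44, 0.25, -0.16 and 0.20. Gpx4, which reduces lipid peroxides, had 0.11, -0.25, -0.28 and -0.66, with array 1 as the highest.

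Muscle and widespread forms of other energy enzymes also had unlike ratios. Eno3, the muscle enolase, had -0.93, 0.49, 0.42 and 0.63, and Eno1 had -0.29, 0.19, -0.22 and 0.05. Slc25a5, the widespread partner of Slc25a4, had 0.80, 0.11, 0.53 and -0.19, high on array 1 where Slc25a4 was low. On array 1 the muscle form lay below its partner in both of these pairs. It also did so for Pgam2 (-1.35) beside Pgam1 (-0.55), Pygm (-0.35) beside Pygb (0.0031) and Ckmt2 (-1.38) beside Ckmt1 (0.43). The remaining listed pair outside the chain went the other way. Ckm, the muscle creatine kinase, had -0.84, -0.54, 0.76 and 0.72, and Ckb, the form known from brain, had -2.06, -1.47, -0.47 and 0.02, so the muscle form lay above its partner on all 4 arrays, array 1 included. These differences were not tested.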
